A study of Mus musculus with 36 samples.

Results

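The regions described here are stretches of trimethylated histone H3 lysine 27 (H3K27me3) that lie far from protein-coding genes in the mouse genome. Overlapping or touching islands of the 2 control neurosphere H3K27me3 libraries were merged on the 19 autosomes, and a merged region was kept if it was under 30 kb, held an island of both libraries and lay over 50 kb from any protein-coding gene of the mm10 GENCODE annotation. Of 57154 merged regions, 25952 held an island of both libraries and 24668 of these were under 30 kb. The rule left 5837 far regions, while the other 18831 lay within 50 kb of a gene and are called gene-near regions below. Because the rule read H3K27me3 in control neurospheres, the level of that mark in those libraries is a description of how the regions were chosen and was not tested.

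An island is a run of 200 bp windows in which the immunoprecipitated reads exceeded the input library, with gaps of up to 600 bp bridged, at a false discovery rate (FDR) of 0.01. The value used throughout is the covered share, the percent of bases of a set of regions that lie inside a library's islands. Each library's island file gives reads per island only, so a stretch outside islands is a stretch without a call and not one shown to lack the mark.

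Chromatin was taken from hippocampi of mice at postnatal day 0 and from neurospheres, cultures of neural progenitor cells grown from such hippocampi in suspension with FGF2 and EGF. Control animals (Ctrl) were labelled Kdm2bfl/+ or Kdm2bfl/fl, which gives 1 or 2 floxed alleles and names no Cre. The labels do not say which library had which. The conditional mutants (cKO) were labelled Kdm2bEmx1-delta-CxxC, in which Cre from the Emx1 locus removes the exon of the CxxC zinc finger of KDM2B. Emx1-Cre acts in the dorsal telencephalon, so cells of other origin in the dissected hippocampus keep the floxed allele. Antibodies to H2AK119ub1, H3K27me3 and H3K36me2 were used in 2 libraries per genotype and source, which gave 24 libraries in 12 groups, and 12 input libraries had no island file of their own. In hippocampus some inputs were labelled as inputs for H3K36me2 and the others named no mark. Neurosphere inputs named no mark. No label says whether the 2 libraries of a group came from separate animals or cultures, so the spread between them may be technical.

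H3K27me3 is laid down by Polycomb repressive complex 2 and H2AK119ub1, monoubiquitinated histone H2A, by Polycomb repressive complex 1. Both mark silent developmental genes, and in vertebrates both gather at CpG islands, where the CxxC zinc finger of KDM2B binds unmethylated CpG and brings a variant of complex 1. H3K36me2 is a mark of broad euchromatic domains, within and between genes, and H3K36 methylation hinders complex 2 on the same histone tail. KDM2B also holds a JmjC domain that removes H3K36me2.

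The libraries differed in how many reads lay inside islands, while their total depth is unknown. Counts inside islands ran from 987329 to 6799122 for hippocampus H2AK119ub1, from 1681001 to 5525016 for hippocampus H3K27me3 and from 3109819 to 4504325 for hippocampus H3K36me2. In neurospheres they ran from 5025115 to 17734396, from 13195590 to 17025504 and from 10587042 to 22021439 for the same marks. Autosomal length inside islands varied with them, from 37.3 Mb to 247 Mb among the 4 hippocampus H2AK119ub1 libraries. No 2 of the 24 files held identical islands. The neurosphere cKO H3K36me2 replicate 2 library stood apart from the other 7 of its mark, as its values below show. Promoters gave an indirect check of the sources: all 5 genes of other lineages (Hoxa9, Hoxd10, Gata4, Myod1, Pax7) were under H3K27me3 islands in each of the 8 H3K27me3 libraries, against 19 of 56 cases for 7 genes of the dorsal telencephalon. Sox2 had no island in any of the 8, whereas Emx1 had islands in 5 and Pax6 in 7. Islands cannot show the deletion in Kdm2b itself, so the genotype labels were not checked.

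Sequences of 6 far regions are shown to let the reader see what kind of DNA carries each pattern. They are the 300 bp window with most CpG in the leading regions of 3 kinds: those under Polycomb marks in most libraries (nearest genes Foxb1 and Thy1), those under H3K36me2 in most libraries (Gas1 and Rps24), and those with the highest CpG ratio (Adgrl2 and Gpc5). Letters are those of the plus strand of GRCm38 (mm10), read from the RefSeq assembly, and CpG dinucleotides are in capitals.
Foxb1 side, chr9:69671164-69671463: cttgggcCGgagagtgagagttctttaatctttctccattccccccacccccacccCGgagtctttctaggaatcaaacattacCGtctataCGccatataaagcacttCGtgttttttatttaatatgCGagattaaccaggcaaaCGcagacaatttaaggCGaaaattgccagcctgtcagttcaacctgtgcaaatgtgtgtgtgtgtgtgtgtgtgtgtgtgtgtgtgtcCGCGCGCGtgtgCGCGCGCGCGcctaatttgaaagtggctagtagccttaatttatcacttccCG
Thy1 side, chr9:43961489-43961788: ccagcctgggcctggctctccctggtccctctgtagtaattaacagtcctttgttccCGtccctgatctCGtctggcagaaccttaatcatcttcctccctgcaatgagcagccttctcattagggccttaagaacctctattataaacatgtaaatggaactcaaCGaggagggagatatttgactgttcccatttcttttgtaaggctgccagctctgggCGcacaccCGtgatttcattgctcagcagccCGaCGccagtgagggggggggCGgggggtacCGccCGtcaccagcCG
Gas1 side, chr13:60069138-60069437: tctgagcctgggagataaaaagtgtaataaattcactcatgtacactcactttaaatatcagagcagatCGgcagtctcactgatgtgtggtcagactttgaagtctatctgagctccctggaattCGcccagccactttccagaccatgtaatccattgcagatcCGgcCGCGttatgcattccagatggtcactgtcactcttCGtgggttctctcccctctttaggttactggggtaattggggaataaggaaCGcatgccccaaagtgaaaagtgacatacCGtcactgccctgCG
Rps24 side, chr14:24966631-24966930: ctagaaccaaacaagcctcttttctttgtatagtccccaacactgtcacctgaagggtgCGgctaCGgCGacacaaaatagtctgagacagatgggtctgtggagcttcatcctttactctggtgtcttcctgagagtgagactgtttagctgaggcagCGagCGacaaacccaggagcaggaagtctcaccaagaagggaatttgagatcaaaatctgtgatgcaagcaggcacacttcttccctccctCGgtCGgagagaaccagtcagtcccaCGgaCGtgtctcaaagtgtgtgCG
Adgrl2 side, chr3:148347093-148347392: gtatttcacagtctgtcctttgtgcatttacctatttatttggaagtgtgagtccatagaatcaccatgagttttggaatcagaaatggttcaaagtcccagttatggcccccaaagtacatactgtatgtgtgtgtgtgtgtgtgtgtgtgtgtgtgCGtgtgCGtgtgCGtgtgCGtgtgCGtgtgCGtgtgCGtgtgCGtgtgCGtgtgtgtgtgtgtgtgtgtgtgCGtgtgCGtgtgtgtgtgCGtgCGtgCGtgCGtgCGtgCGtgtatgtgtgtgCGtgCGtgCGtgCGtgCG
Gpc5 side, chr14:115040556-115040855: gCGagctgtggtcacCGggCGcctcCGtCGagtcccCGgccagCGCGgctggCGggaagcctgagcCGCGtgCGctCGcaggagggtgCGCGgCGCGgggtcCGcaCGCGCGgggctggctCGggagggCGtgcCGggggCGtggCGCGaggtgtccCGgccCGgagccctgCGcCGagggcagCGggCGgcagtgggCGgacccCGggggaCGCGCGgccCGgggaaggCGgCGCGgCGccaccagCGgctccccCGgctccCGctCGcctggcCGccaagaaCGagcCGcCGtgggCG
The Gpc5-side window is a dense CpG island with 52 CpG and 82.7% GC, and 0.000223% of 2694414 tiles of 300 bp in other far sequence held as many. The Adgrl2-side window holds 22 CpG, all of them in a stretch rich in TG repeats. The Polycomb windows hold 18 (Foxb1) and 11 (Thy1) CpG and the H3K36me2 windows 9 (Gas1) and 10 (Rps24), counts reached by 0.161%, 0.789%, 1.42% and 1.03% of the tiles. The 6 windows were picked as the richest of their regions, so they lie above the median of 1 CpG per tile by construction.

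The far regions were short and lay well away from genes. Their width had a median of 4 kb (quartiles 2.4 and 7 kb, range 200 bp to 29.8 kb), against a median of 5 kb (quartiles 2.8 and 9.2 kb) for gene-near regions. Together they made up 32.6 Mb, 3.88% of the 841 Mb of autosomal sequence over 50 kb from genes. By class, 177 were under 1 kb, 826 were 1 to 2 kb, 2535 were 2 to 5 kb, 1455 were 5 to 10 kb and 844 were 10 to 30 kb. The distance to the nearest protein-coding gene had a median of 121 kb (quartiles 76 and 218 kb) and reached 2140 kb.

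The limits of the rule fell in a continuous range. The widest regions kept, at 29.8 kb, lay near Ppp2r5c and Aldh1b1, and the narrowest left out, at 30 kb, near Fam43a and Cdh4. The region nearest to a gene lay 50003 bp from Nfasc, and the farthest one left out lay 49982 bp from Npy2r. Another 112 far regions reached 30 kb or more and are not counted. Only 4155 of the 5837 held islands of both libraries that overlapped over at least 50% of the region.

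Chromosome 9 held most far regions, 509, and chromosome 19 fewest, 106. Relative to the sequence over 50 kb from genes that each chromosome offers, chromosome 9 was also highest at 14.6 regions per Mb, followed by chromosome 7 (9.97), chromosome 13 (9.54) and chromosome 2 (9.37). Chromosome 1 was lowest with 3.59 per Mb, 269 regions in 74.9 Mb, and chromosomes 3 and 14 followed with 4.08 and 4.13. The median over autosomes was 7.02. These are single values per chromosome from 1 set of regions, so no spread between samples belongs to them.

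**Figure D1:**
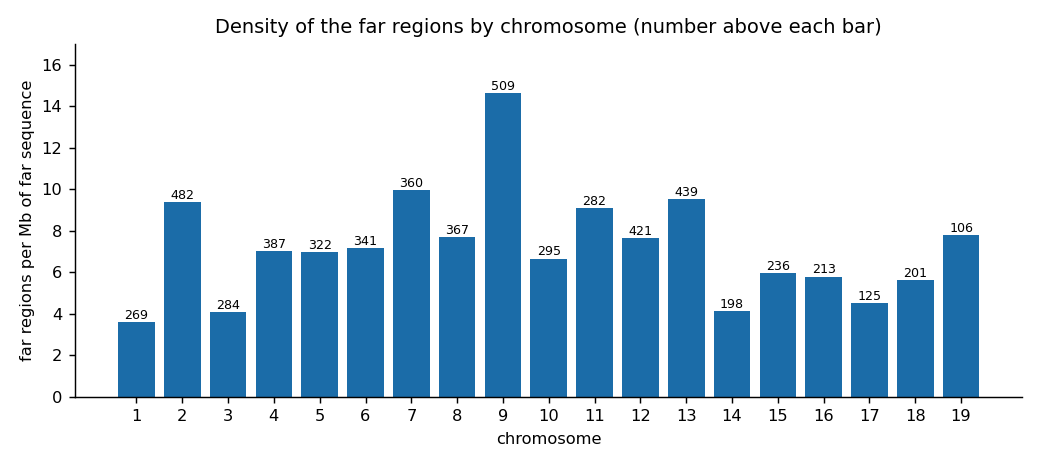
Far regions per Mb of autosomal sequence over 50 kb from protein-coding genes (y axis) on each autosome (x axis), with the number of regions above each bar. Chromosome 9 stands highest at 14.6 per Mb and chromosome 1 lowest at 3.59.

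Far regions sat close to each other. The median gap between neighbours was 9.5 kb, 5179 of 5837 (88.7%) had another within 100 kb, and 142 groups of 10 or more held 2657 of them. The largest group had 50 regions over 670 kb (chr2:74930001-75600400) between Mtx2 and Hnrnpa3, with no protein-coding gene inside. Mtx2, which encodes a mitochondrial outer membrane protein, is the neighbour of the HoxD cluster of homeobox genes. A group of 49 lay between the cadherin genes Cdh26 and Cdh4 (chr2:178552401-179392200), and one of 45 between Pax1 and Foxa2 (chr2:147454401-147986400), transcription factors of the sclerotome and of the floor plate and endoderm. Groups of 46 and 43 lay between Zfhx3 and Pmfbp1 (chr8:109012601-109440800) and between Sox14 and Il20rb (chr9:99943801-100401600).

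These 5 groups differed in what else covered them. Hippocampus H3K27me3 covered 69.6% and 20.7% of the Zfhx3 group in Ctrl, and 70.6% and 60.6% in the 2 cKO libraries, and no hippocampus H3K36me2 library had a base of it inside an island. In the Cdh26 to Cdh4 group the same H3K27me3 libraries covered only 8.16%, 2.24%, 18.9% and 26.2%. There hippocampus H2AK119ub1 reached 15.4% and 50% in Ctrl and 14.8% and 76% in cKO, and hippocampus H3K36me2 9.02% to 10.9%. The Mtx2 group led in neurosphere H2AK119ub1 among the 5 in both Ctrl libraries (47.3% and 44.1%) and in cKO replicate 1 (34.9%), while in cKO replicate 2 it and the Cdh26 to Cdh4 group were level at 45%. In the Sox14 group neurosphere H3K36me2 was at 0% in both Ctrl libraries and at 0.188% and 0% in cKO.

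The nearest genes of the far regions included many developmental transcription factors. There were 1484 nearest genes, of which 138 were nearest to 10 or more regions. A list of developmental transcription factors, matched by symbol, took 574 regions (9.83%) and 79 genes, against 3.85% of the other far sequence, or 16.6 regions per Mb beside 6.94 for all far sequence. Among these Id4, an inhibitor of basic helix-loop-helix factors in neural progenitors, was nearest to 32 regions, and Bcl11a, Irx1, Nr2f2 and Zfhx3 to 26 each. Cadherins and protocadherins took 72 regions (1.23%, against 4.66% of other far sequence) and the other neuronal adhesion genes 163 (2.79% against 7.62%). Olfactory and vomeronasal receptor genes took 19 (0.326% against 0.619%). Outside the lists, Auts2, a gene of neuronal development, was nearest to 37 and Xylt1, a proteoglycan xylosyltransferase, to 38. The rule chose regions by H3K27me3, so these shares describe where that mark lay and were not tested.

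Regions nearest to transcription factor genes were covered more than regions outside the 4 lists by both Polycomb marks in hippocampus. For H2AK119ub1 in neurospheres they were not. Their hippocampus H3K27me3 covered 45.9% and 20.1% of their bases in Ctrl, then 46.4% and 45.9% in cKO, against 18.5%, 6.66%, 20.8% and 23.5% for regions outside the 4 lists. The transcription factor regions were higher in 4 of 4 libraries. Hippocampus H2AK119ub1 was also higher there in 4 of 4 (11.8%, 33.7%, 7.93% and 46.8% against 6.23%, 22.5%, 5.1% and 34.2%). H3K36me2 was lower there in 4 of 4 hippocampus and 4 of 4 neurosphere libraries, at 5.5% to 8.19% against 8.57% to 12.7% in hippocampus. Neurosphere H2AK119ub1 was higher there in only 1 of 4 libraries (30.3% and 19.1% in Ctrl, 15.4% and 26.6% in cKO, against 31.7%, 18.2%, 17.7% and 29.6%). High hippocampus H2AK119ub1 was not particular to the transcription factor regions. It ranged from 14% to 68.3% over cadherin and protocadherin regions, against 7.93% to 46.8% over the transcription factor ones. No test was run on these lists.

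In sequence, far regions were richer in G, C and CpG than other far sequence. Their GC content was 46.1% against 39.5%, they held 10.8 CpG per kb against 6.23, and their ratio of observed to expected CpG was 0.203 against 0.16. Gene-near regions were slightly higher on each measure (46.8%, 12.3 per kb and 0.224). Repeats marked in lower case in the assembly made up 27.6% of far regions, 28.8% of gene-near regions and 38.8% of other far sequence. GC content and repeats can change how well reads are recovered and aligned, and their part in where islands were called was not tested.

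Few far regions held a CpG island. A stretch of 600 bp with over 50% GC and a CpG ratio over 0.6 occurred in 330 (5.65%), against 2601 gene-near regions (13.8%). Hippocampus H3K27me3 covered more of the regions with such a stretch in 4 of 4 libraries (14.4% to 27.7% with, 7.47% to 25.7% without). H3K36me2 in hippocampus covered less of them in 4 of 4 (3.77% to 5.57% with, 8.67% to 12.7% without). Neurosphere H2AK119ub1 covered less of them in 4 of 4 libraries (12.9% to 25.6% with, 18.1% to 32.4% without), while hippocampus H2AK119ub1 was split 2 and 2.

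Most far regions lay outside any annotated gene. No gene of any type overlapped 4466 of them (76.5%), 795 (13.6%) touched an exon of a noncoding gene or pseudogene, and 576 (9.87%) lay in an intron only. Long intergenic noncoding RNA genes (lincRNA) were the most frequent type, in 974 regions, and processed pseudogenes followed with 162. Noncoding starts were denser in far regions than in other far sequence, with 17.3 per Mb against 10.3.

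In every hippocampus library the far regions were covered more than other far sequence. Hippocampus H3K27me3 covered 21.2% and 7.95% of far region bases in Ctrl and 23.5% and 25.8% in cKO. Other far sequence was covered at 3.18% and 1.09% in Ctrl and 3.32% and 3.28% in cKO. The enrichment, log2 of the covered share in far regions over that in other far sequence, came to 2.74 and 2.87 in Ctrl, then 2.82 and 2.98 in cKO. These 4 values lay close together although Ctrl replicate 2 held 1681001 counts in islands and the other 3 held 5117758 to 5525016.

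Hippocampus H2AK119ub1 covered 6.93% and 24.1% of far region bases in Ctrl and 5.55% and 36.1% in cKO, with log2 enrichments of 2.53, 2.77, 2.48 and 2.70. The libraries numbered 2 were higher in both genotypes, and those numbered 1 held fewer counts. Hippocampus H3K36me2 covered 12.2% and 8.33% in Ctrl and 10.8% and 10.2% in cKO, with enrichments of 0.78, 0.72, 0.88 and 0.68. So H3K36me2 was also above other far sequence in 4 of 4, by a smaller factor than the Polycomb marks. In bulk chromatin of this kind, fewer cells with a mark and less of the mark per cell cannot be told apart.

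**Figure D2:**
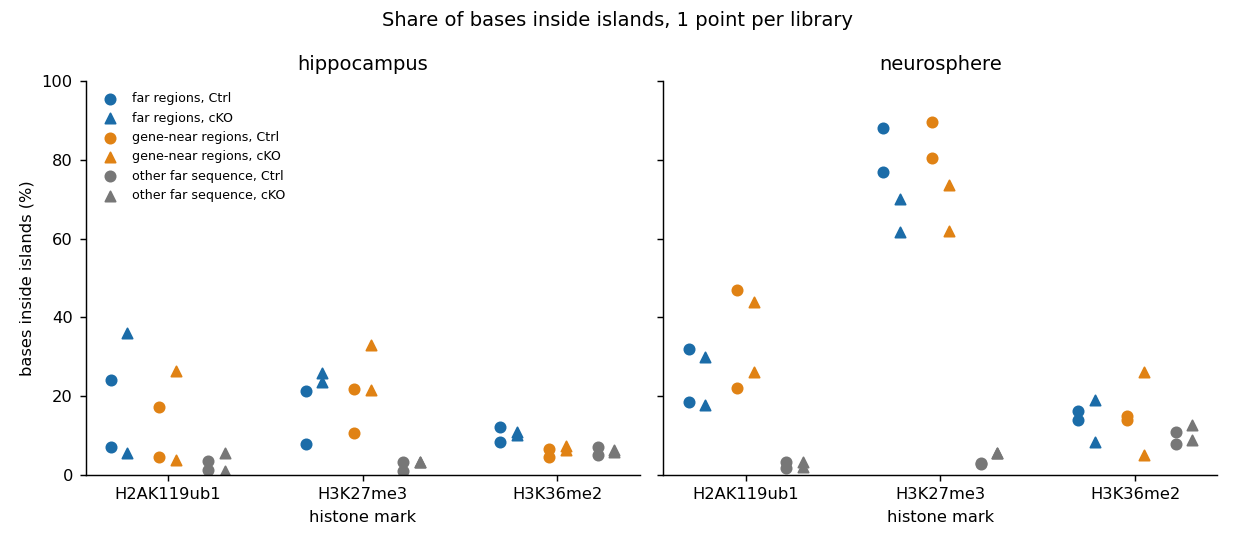
Percent of bases inside islands (y axis) for far regions, gene-near regions and other far sequence, by histone mark (x axis) in hippocampus and neurosphere, with 1 point per library (circles Ctrl, triangles cKO). Neurosphere H3K27me3 Ctrl libraries chose the regions and stand highest, at 88% and 76.9% for far regions.

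The marks differed in enrichment within hippocampus, over regions that were chosen by H3K27me3 in neurospheres. Neurospheres were grown from such hippocampi, so the choice itself favours H3K27me3 over the other marks. Hippocampus H3K36me2 also had inputs labelled for it, and a difference of mark cannot be told apart from one of input. Mean log2 enrichment over both genotypes was 2.85 ± 0.10 for H3K27me3, 2.62 ± 0.14 for H2AK119ub1 and 0.76 ± 0.09 for H3K36me2 (SD, n = 4 each). H3K36me2 was below H3K27me3 (difference -2.09) and below H2AK119ub1 (-1.86), with no overlap between the libraries (exact permutation test, 4 against 4, two-sided, adjusted p = 0.0429 over 3 pairs for each, where 0.0286 is the smallest unadjusted p). H2AK119ub1 minus H3K27me3 was -0.23, which missed the threshold (exact permutation test, adjusted p = 0.0571), and was -0.28 without hippocampus Ctrl H2AK119ub1 replicate 2 (adjusted p = 0.0286). Taken within genotype and replicate number, the differences between H3K36me2 and the other marks pointed the same way but could reach only p = 0.125 in an exact sign-flip permutation test. Because covered length differed between libraries, islands were also kept in order of falling reads per kb until each library covered the length of the smallest, and H2AK119ub1 minus H3K27me3 was then -0.55 (exact permutation test, adjusted p = 0.0286).

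Neurosphere H2AK119ub1 covered 31.9% and 18.5% of far region bases in Ctrl and 17.8% and 29.9% in cKO, with enrichments of 3.33, 3.51, 3.21 and 3.25. These lay above all 4 hippocampus libraries, with means of 3.32 ± 0.13 and 2.62 ± 0.14 (SD, n = 4 each). The difference of 0.70 had an exact permutation p of 0.0286, the smallest possible, and 0.0571 after adjustment over 2 marks. When islands were cut to equal length in the 8 libraries, the difference turned to -0.82 (exact permutation test, adjusted p = 0.143). Its direction thus changed with that setting, and the cause was not tested.

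Neurosphere H3K36me2 covered 13.9% and 16.2% in Ctrl and 19% and 8.37% in cKO. Enrichment came to 0.82 and 0.56 in Ctrl, then 1.10 and -0.59 in cKO, so cKO replicate 2 was the only library of the 24 in which far regions were covered less than other far sequence. That library held 10587042 counts, the fewest of its group of 4. The difference from hippocampus, -0.29, was within the spread (exact permutation test, adjusted p = 0.686), and without that library it was 0.06.

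**Figure D3:**
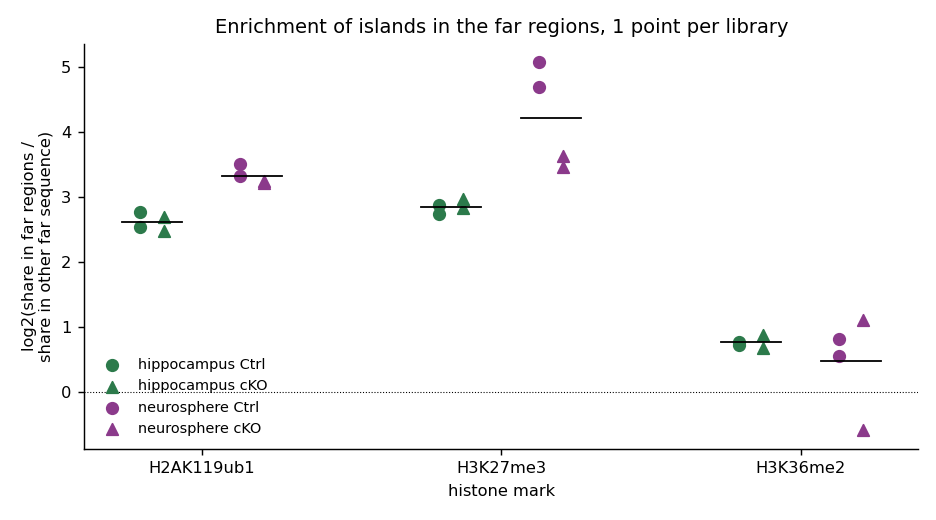
Log2 of the covered share in far regions over that in other far sequence (y axis) by histone mark (x axis), with 1 point per library and the mean of 4 libraries of a source as a bar. H3K36me2 lies below both Polycomb marks in hippocampus, and neurosphere cKO H3K36me2 replicate 2 is the only point below 0, at -0.59.

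Far and gene-near regions differed in opposite ways in the 2 sources for H2AK119ub1. In hippocampus, H2AK119ub1 covered more of far than of gene-near regions in 4 of 4 libraries, by 5.25 ± 3.75 percentage points (SD, n = 4, range 1.86 to 9.73). In neurospheres it covered less of far regions in 4 of 4, with a mean difference of -10.2 ± 5.32 points (range -15.1 to -3.60). H3K36me2 covered more of far regions in 4 of 4 hippocampus libraries, by 4.23 ± 0.96 points, and in 2 of 4 neurosphere libraries, with a mean of -0.60 ± 4.64. H3K27me3 in hippocampus differed by -2.12 ± 3.82 points and was lower in 3 of 4.

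Pooled over both sources, none of the 3 marks passed the test of far against gene-near regions. The mean difference was -2.50 points for H2AK119ub1 and 1.81 for H3K36me2 over 8 libraries, and -2.12 for H3K27me3 over the 4 hippocampus libraries (exact sign-flip permutation tests, adjusted p = 0.469 for each). The difference between sources itself was then tested, a comparison chosen after the values were seen. It was -15.5 points for H2AK119ub1 and -4.83 for H3K36me2, neurosphere minus hippocampus (exact permutation tests, 4 against 4, adjusted p = 0.0286 for each). For regions over 100 kb from genes the adjusted p was 0.0571 and 0.143, with distances from all annotated genes it was 0.0571 for both, and paired within genotype and replicate number it was 0.125 for both, the smallest possible (exact permutation tests). For H2AK119ub1 the adjusted p was 0.0571 without hippocampus Ctrl replicate 2 (difference -14.9) or cKO replicate 2 (-14.0), and for H3K36me2 it was 0.143 to 0.171 without any 1 of the 4 hippocampus libraries (-5.09 to -4.37).

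Regions of like width gave the same direction for H2AK119ub1. In each of the 5 width classes hippocampus H2AK119ub1 was higher in far regions in 4 of 4 libraries. In neurospheres it was lower in 4 of 4 in every class but that of 1 to 2 kb, where 1 library went the other way. At 10 to 30 kb, for example, mean hippocampus H2AK119ub1 was 24.8% in far and 17.2% in gene-near regions, and mean neurosphere H2AK119ub1 35.2% and 45.4%. Hippocampus H3K36me2 was higher in far regions in 4 of 4 libraries in each class. Far regions also held fewer CpG-rich stretches than gene-near regions, as given above, and the part of that in these differences was not tested.

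**Figure D4:**
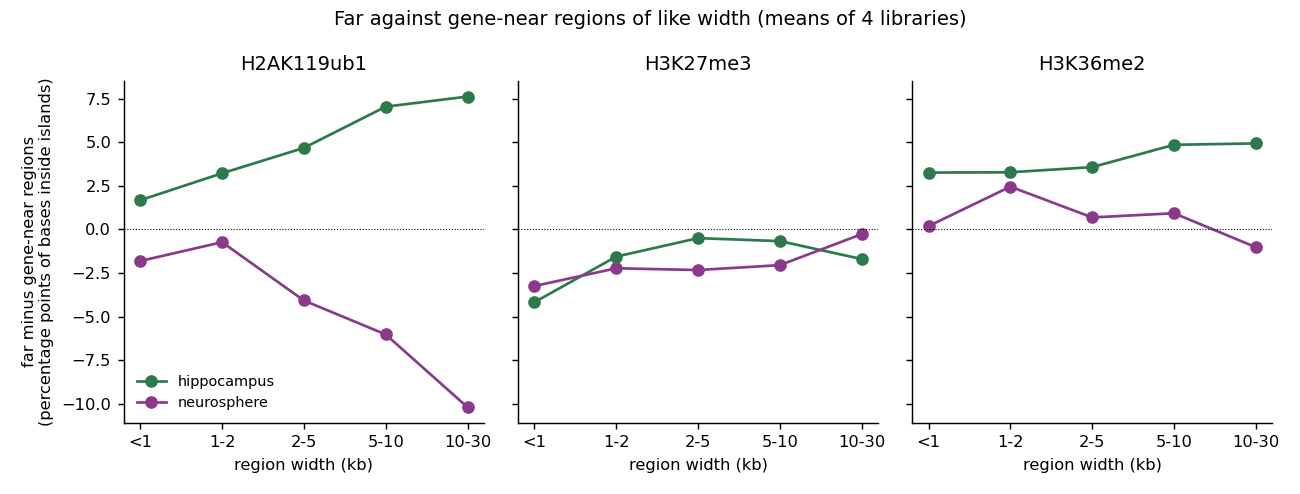
Mean covered share of far regions minus that of gene-near regions of the same width class, in percentage points (y axis), by region width in kb (x axis), for 3 marks in 2 sources (each point a mean of 4 libraries). For H2AK119ub1 the hippocampus line lies above 0 and the neurosphere line below 0 in all classes. Neurosphere H3K27me3 includes the libraries that chose the regions.

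Far regions varied in how far their H3K27me3 extended to hippocampus. None of the 4 hippocampus H3K27me3 libraries had an island in 3089 regions (52.9%), 1 to 3 had one in 2192 (37.6%), and all 4 in 556 (9.53%). Median width rose over these classes from 3.2 to 4.6 and 7 kb. H2AK119ub1 in the 4 hippocampus libraries covered 2.68% to 19.5% of the bases of the first class and 10.9% to 65.5% of the last. It was higher in the last class in 4 of 4 libraries. H3K36me2 ran the other way, from 12.4% to 18.2% in regions without hippocampus H3K27me3 to 1.46% to 2.62% in those with it in all 4. In regions without hippocampus H3K27me3, 807 had H3K36me2 islands in 2 or more hippocampus libraries (26.1%), against 26 (4.68%) of those with it in all 4. Neurosphere H3K36me2 changed less over the same classes, from 11.5% to 20.1% down to 6.31% to 17%.

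**Figure D5:**
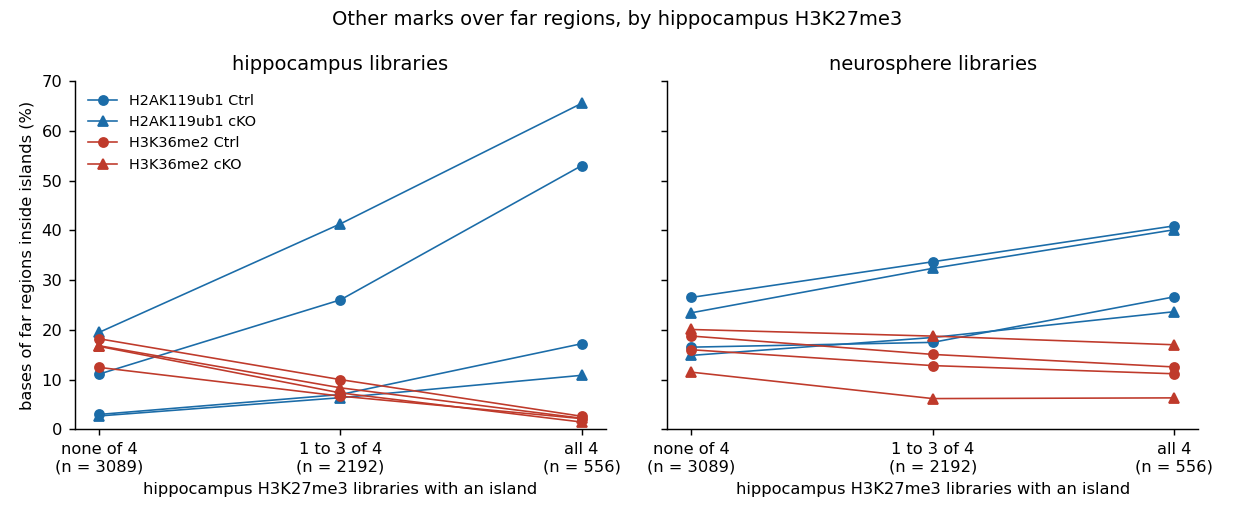
Percent of far region bases inside H2AK119ub1 (blue) and H3K36me2 (red) islands (y axis) in regions with H3K27me3 islands in none, 1 to 3 or all 4 hippocampus H3K27me3 libraries (x axis), with 1 line per library. In hippocampus, H2AK119ub1 lines climb to between 10.9% and 65.5% and H3K36me2 lines fall to between 1.46% and 2.62%.

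The same held base by base. In hippocampus, of the far region bases under H3K36me2, 1.21% to 7.34% were also under H3K27me3 of the same genotype and replicate number. The bases under both made up 0.153 to 0.313 of the product of the 2 covered shares, in 4 of 4 pairs of libraries below 1. H2AK119ub1 and H3K27me3 shared 1.63 to 2.32 times that product in hippocampus. In neurospheres, where the regions were chosen by H3K27me3, the ratio for H3K36me2 and H3K27me3 was 0.619 to 1.03. H2AK119ub1 and H3K36me2, of which neither chose the regions, shared 0.58 to 0.94 times their product in hippocampus and 1.72 to 2.29 times in neurospheres. Only hippocampus H3K36me2 had inputs labelled for it, and the part of the inputs in these ratios was not tested.

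Regions under Polycomb marks in the most libraries were chosen from the 12 libraries of hippocampus H3K27me3 and of H2AK119ub1. All of the leading 5 had islands in 12 of 12, with ties ordered by mean covered share. For 4 of them the nearest protein-coding gene was a homeobox or forkhead gene, 57 to 320 kb away. Over all far regions the listed developmental transcription factors were nearest to 9.83%. The share for homeobox and forkhead genes alone was not counted, so nothing is read from the 4. At chr9:69665601-69677200, 11.6 kb of intergenic sequence 80.5 kb from Foxb1, a forkhead factor of the hypothalamus and spinal cord, hippocampus H3K27me3 covered 100% and 75.9% in Ctrl and 100% and 100% in cKO. H2AK119ub1 covered 34.5% and 93.1% there in hippocampus Ctrl, 34.5% and 81% in hippocampus cKO, 98.3% and 100% in neurosphere Ctrl and 79.3% and 77.6% in neurosphere cKO. No hippocampus H3K36me2 library had an island in it, and among neurosphere H3K36me2 libraries only the cKO ones did, with 62.1% and 15.5%. That pattern, islands in both cKO and neither Ctrl library, held for 24 far regions (0.411%), against 0.754% of all regions under 30 kb.

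The region at chr13:72283401-72304800, 21.4 kb long and 320 kb from Irx1, an Iroquois homeobox gene, was covered by hippocampus H3K27me3 at 100% and 93.5% in Ctrl and 100% and 100% in cKO. Its neurosphere H2AK119ub1 was at 91.6% and 85% in Ctrl and at 20.6% and 34.6% in cKO. The share of far regions with such a separation was not counted. Neurosphere H3K27me3, which chose it in Ctrl, was at 89.7% and 90.7% in Ctrl, beside 35.5% and 42.1% in cKO. Neurosphere H3K36me2 was at 44.9% and 43% in Ctrl, beside 71% and 42.1% in cKO. It was singled out for its many islands, and no test was made of it alone.

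The other regions of that kind lay 57 kb from Msx1 (chr5:37881601-37908600, overlapping the lincRNA gene Gm20052), 92.5 kb from Lhx1 (chr11:84618001-84647600, intergenic) and 76.2 kb from Thy1 (chr9:43947201-43967200, overlapping an exon of the lincRNA gene Gm30373). Msx1 and Lhx1 encode homeobox factors of early patterning and Thy1 a neuronal surface protein. The Lhx1 region was also among the 5 widest. Hippocampus H3K36me2 had no island in any of the 5, and none in 3684 (63.1%) of all far regions. The remaining widest regions lay near Ppp2r5c, Aldh1b1, Ndufa10 and Rtl1 and had islands in 15, 15, 15 and 10 of the 24 libraries.

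Regions under H3K36me2 in the most libraries had it in 8 of 8 and lacked hippocampus H3K27me3 throughout the leading 5. Over all far regions 3089 (52.9%) lacked hippocampus H3K27me3 too. At chr13:60063001-60070200, 7.2 kb overlapping exons of the lincRNA genes A530065N20Rik and Gm48397 and 104 kb from Gas1, which encodes a Sonic hedgehog co-receptor, H3K36me2 covered 88.9% and 52.8% in hippocampus Ctrl and 100% and 83.3% in hippocampus cKO. In neurospheres it covered 100% and 100% in Ctrl and 97.2% and 77.8% in cKO. Neurosphere H2AK119ub1 was there too, at 97.2% and 97.2% in Ctrl and 25% and 97.2% in cKO. Neurosphere H3K27me3 went from 91.7% and 97.2% in Ctrl to 61.1% and 0% in cKO. The other 4 lay 468 kb and 223 kb from Rps24, a ribosomal protein gene (chr14:24965401-24968400 and chr14:24720201-24728800), 53.8 kb from Sh3bp4 (chr1:89013601-89016600) and 98.2 kb from Lrig1 (chr6:94798401-94809200). None of these 4 had a neurosphere H3K27me3 island in cKO replicate 2. That library had an island in 69.9% of all far regions and lies in the contrast the rule used, so nothing is read from this.

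The regions with the highest CpG ratio were of unlike kinds. The one on the Gpc5 side (chr14:115040001-115041200, ratio 0.965) lay 1.68 kb from Mir17hg, the host gene of the miR-17 to miR-92 cluster. It had no H3K36me2 island in any library and hippocampus H3K27me3 only in cKO, at 33.3% and 50% against 0% and 0% in Ctrl. Hippocampus H3K27me3 islands in both cKO and neither Ctrl library occurred in 286 far regions (4.9%), against 5.1% of all regions under 30 kb. The region at chr17:39842401-39849000, 6.6 kb with a ratio of 0.948, overlapped the ribosomal RNA gene CT010467.1 and the lincRNA genes Gm26917, Gm42418 and AY036118. Its islands held 2703 and 2554 reads per kb in the neurosphere Ctrl libraries, against medians of 44.2 and 38.2 over all far regions. Ribosomal RNA genes are present in many copies in the mouse genome. The region at chr3:5860201-5861000, near Gm8797 with a ratio of 0.93, was also dense, with 1301 and 1244 reads per kb. The other 2, on the Adgrl2 side (chr3:148347001-148347400, the narrow one with the CGTG repeat) and near Ifne (chr4:88937201-88939000, over an exon of AL805899.1), had 140 and 87.5 and 157 and 169 reads per kb.

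In all, 5 far regions exceeded 500 reads per kb in neurosphere Ctrl replicate 1, and they were picked out after their values were seen. Beside the 2 named above they were chr1:95451801-95452200 near Fam174a, chr6:103314601-103314800 near Chl1 and chr8:15519401-15520200 near Csmd1, each under 1 kb. Together the 5 are too few to move any share given here by length.

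Over all 24 libraries a far region had islands in a median of 7. In 293 (5.02%) islands came only from the 2 libraries that chose them, and 1404 (24.1%) had no island of any mark in hippocampus. Only 2 had an island in all 24, at chr8:12116201-12144800 near A230072I06Rik and chr16:29711601-29740800 near Opa1. At 28.6 and 29.2 kb both were close to the width limit.

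Deletion of the KDM2B zinc finger went with no difference in covered share that the design could call. With 2 libraries against 2 the exact permutation test cannot fall below p = 0.333. Hippocampus H2AK119ub1 averaged 15.5% ± 12.1 in Ctrl and 20.8% ± 21.6 in cKO (SD, n = 2, exact permutation p = 1), and hippocampus H3K36me2 10.3% ± 2.73 and 10.5% ± 0.44 (p = 1). Hippocampus H3K27me3 averaged 14.6% ± 9.35 in Ctrl and 24.6% ± 1.65 in cKO, and the genotypes did not overlap (exact permutation p = 0.333, n = 2). Set against other far sequence in the same libraries, that difference was 0.09 on the log2 scale and the groups overlapped (exact permutation p = 0.667, n = 2). The difference in covered share of 10.1 points was 3.46 without Ctrl replicate 2 and 16.7 without Ctrl replicate 1, and 1.11 with islands kept to equal covered length (exact permutation p = 0.667, n = 2).

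In neurospheres H2AK119ub1 averaged 25.2% ± 9.44 in Ctrl and 23.8% ± 8.57 in cKO (SD, n = 2, exact permutation p = 0.667), and H3K36me2 15% ± 1.64 and 13.7% ± 7.52 (p = 1). The log2 enrichment of neurosphere H2AK119ub1 was 3.42 ± 0.13 in Ctrl and 3.23 ± 0.03 in cKO, without overlap (SD, n = 2, exact permutation p = 0.333). This difference of -0.19 was -0.013 with islands kept to equal covered length. Tested over both sources with labels exchanged within each, cKO minus Ctrl was 1.99 points for H2AK119ub1 (exact permutation p = 1) and -0.53 for H3K36me2 (exact permutation p = 0.889), where the smallest possible p is 0.0556.

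Neurosphere H3K27me3 covered 88% and 76.9% of far region bases in the Ctrl libraries, beside 70% and 61.7% in the cKO ones. A lower cKO value is what a choice by the Ctrl libraries favours, so the rule was also applied to the 2 cKO libraries. Their 3812 regions, with a median width of 7.4 kb, were covered at 66.7% and 84.3% in the cKO libraries and at 42.4% and 36.8% in Ctrl. Of the regions chosen in Ctrl, 783 (13.4%) had no cKO island, and of those chosen in cKO, 777 (20.4%) had no Ctrl island. Islands of both libraries of the other genotype lay in 3616 (62%) of the Ctrl-chosen and 2192 (57.5%) of the cKO-chosen regions.

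Gains and losses were counted as an island in both libraries of one genotype and in neither of the other, and read against all 24668 regions under 30 kb. In hippocampus 22 far regions (0.377%) lost H2AK119ub1 and 101 (1.73%) gained it, against 0.349% and 1.37% of all regions. For hippocampus H3K27me3 there were 9 losses (0.154%) and 286 gains (4.9%), against 0.239% and 5.1%. Hippocampus H3K36me2 was lost in 121 (2.07%, against 1.35%) and gained in 69 (1.18%, against 1.29%). Ctrl replicate 2 of hippocampus H3K27me3 had the fewest counts inside islands of its 4 libraries. Without it there were 310 gains, against 812 without Ctrl replicate 1, 767 without cKO replicate 1 and 560 without cKO replicate 2. Kept to equal covered length, the 4 libraries gave 34 losses and 26 gains. These counts, and those with a library left out, were made in far regions only.

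In neurospheres 147 far regions (2.52%) lost H2AK119ub1 and 96 (1.64%) gained it, against 2.49% and 1.89% of all regions. H3K36me2 was lost in 83 (1.42%, against 1.11%) and gained in 24 (0.411%, against 0.754%). H3K27me3 was lost in 783 (13.4%, against 10.1%), a count in the contrast the rule used, and nothing is read from it. Hippocampus H3K36me2 losses had the largest gap above the background outside that contrast, 2.07% against 1.35%. Islands of that mark in all 4 hippocampus libraries were also more frequent in far regions, 4.87% against 3.32%. With islands over at least 50% of a region, counted in far regions only, there were 43 losses and 72 gains of it.

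Counts per region gave no call. Islands of the 4 libraries of a source and mark were merged, and regions with counts in all 4 were tested with edgeR's quasi-likelihood test. Of 336 regions overlapping far regions for hippocampus H2AK119ub1, 424 for H3K27me3 and 358 for H3K36me2, and of 574, 2214 and 553 in neurospheres, 0 passed a Benjamini-Hochberg FDR of 0.05. Over all regions tested 0 passed either (0% in each of the 6 comparisons). At an unadjusted p under 0.05 the regions overlapping far regions numbered 6, 16 and 16 in hippocampus and 4, 389 and 9 in neurospheres. The shares over all regions were 1.09%, 3.53% and 4.93% in hippocampus and 1.67%, 18.4% and 2.14% in neurospheres, in the same order of marks. DESeq2 at the same FDR called 0, 0 and 1 in hippocampus, against 0%, 0.0684% and 0.56% of all regions to which it gave an adjusted p. In neurospheres it called 0 for H2AK119ub1 (0.528% of all regions), 153 for H3K27me3 (7.12%, against 6.68% of all) and 2 for H3K36me2 (0.362%, against 0.241%). The 153 are in the contrast the rule used, as are the 389. Left-out libraries changed this count in neurospheres only, where edgeR called 26 for H2AK119ub1 without Ctrl replicate 1 (4.53%, against 11.1% of all regions) and 45 for H3K36me2 without cKO replicate 1 (8.14%, against 5.92%). For H3K27me3 it called 388 without cKO replicate 1 (17.5%, against 21.4%) and 6 without cKO replicate 2 (0.271%, against 0.852%). In these fits the lone library of a group was assumed to vary like the other group.

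Among regions called in all 4 libraries, the median log2 change (cKO over Ctrl) of those overlapping far regions was 0.03, 0.05 and -0.09 in hippocampus for H2AK119ub1, H3K27me3 and H3K36me2. The medians over all regions tested were 0.02, -0.02 and 0.00. In neurospheres they were 0.00 for H2AK119ub1 and -0.10 for H3K36me2, beside 0.01 and 0.01. The neurosphere H3K27me3 medians, 0.23 and 0.01, lie in the contrast the rule used, and nothing is read from them. Only wide or strong stretches of each mark enter this test, since a region without an island in any 1 library was left out.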

How the data were processed

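ChIP-seq islands of 24 libraries were analysed, and the 12 input libraries had no file used here. According to the methods, the authors trimmed reads with cutadapt, aligned them to mm10 with Bowtie2 (v2.4.5), removed duplicates with samtools and called islands per library against input with SICER (200 bp window, 600 bp gap, FDR 0.01). SICER's version is not given in the sources used here. The deposited values are counts of reads inside each island, not scaled for depth. They cover islands only, so total library depth is unknown.

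Regions, list members and noncoding overlaps were computed with Python (v3.11.15), numpy (v2.4.6) and pandas (v2.3.3) on GENCODE M21, with the sequence of GRCm38.p6, and plotted with matplotlib (v3.10.9). Covered shares and log2 enrichments were compared over libraries with two-sided exact permutation tests and Benjamini-Hochberg adjustment where several were made. Counts in regions with islands in all 4 libraries were fitted with edgeR (v4.0.16) in R (v4.3.3), with DESeq2 (v1.42.0) as an alternative. The edgeR code was run on counts simulated with set changes and a set spread. The interval and permutation code was run on small examples with known answers. These runs check the code and do not give the power of the tests in these data. Named regions were the 5 widest, the 5 with most Polycomb islands, the 5 with most H3K36me2 islands, the 5 with the highest CpG ratio and those at the limits of the rule. The regions and gene lists were chosen with earlier results of these data known.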

Additional observations from a re-analysis of the deposited data

Results flagged for a closer look

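The covered share of far regions by H3K27me3 differed between genotypes by 10.1 percentage points in hippocampus and by -16.6 points in neurospheres (cKO minus Ctrl, n = 2 each), without overlap of the genotypes in either source. The rule favoured a negative neurosphere value, since the Ctrl libraries chose the regions. That difference turned when the cKO libraries chose (42.4% and 36.8% in Ctrl, 66.7% and 84.3% in cKO). So the 2 values cannot tell whether the sources moved in opposite ways, and their difference was not tested. The hippocampus value was 1.11 at equal covered length and 3.46 to 16.7 with 1 library left out, and the log2 enrichment differed by 0.09 with overlapping groups.

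The difference between far and gene-near regions was not alike in the 2 sources. For H2AK119ub1 far regions were higher in 4 of 4 hippocampus and 0 of 4 neurosphere libraries, and for H3K36me2 in 4 of 4 and 2 of 4. Neurosphere minus hippocampus was -15.5 and -4.83 points (exact permutation test, adjusted p = 0.0286 for both). This test was chosen after those values were seen, so its p restates the separation that led to it and is no independent support. The adjusted p was 0.0571 and 0.143 over 100 kb from genes, and 0.125 for both when paired within genotype and replicate number (exact permutation tests). At equal covered length the differences were -4.40 and -3.19. Counts inside islands also differed between the sources, and their part in these values was not tested beyond that setting.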

How the results depend on the processing

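Of 206 recomputed values under other settings 166 stayed the same by a fixed rule, and of 220 with a library left out 151 did. Tested values had to keep their direction and side of the threshold, and counts had to stay within a set ratio. H3K27me3 values that included the libraries behind the choice had to keep their direction and move by less than the pooled SD. Tests of 2 against 2 libraries, and those stratified by source, cannot pass the threshold, so there only the direction could change. The cause of the changes below was not tested. Islands at equal covered length gave, for cKO minus Ctrl, covered shares of -0.20 (hippocampus H2AK119ub1), -0.40 (hippocampus H3K36me2), -0.11 (H2AK119ub1, both sources) and 1.96 (H3K27me3, both sources) and a log2 enrichment of -1.10 (neurosphere H3K27me3). They also gave -0.82 for H2AK119ub1 enrichment in neurosphere minus hippocampus and -0.55 for H2AK119ub1 minus H3K27me3 in hippocampus, which was -0.38 for regions under 10 kb (exact permutation, adjusted p = 0.0286 for both). Regions under 10 kb gave 0.04 for hippocampus H2AK119ub1 enrichment, cKO minus Ctrl. For hippocampus H3K36me2, distances over 100 kb (3505 regions) gave -0.35 for the share and -0.014 for the enrichment, and distances from all annotated genes (1478 regions) gave -0.94 and -0.10. The last setting turned far minus gene-near H3K36me2 to -0.94, and the difference between sources was -17.1 and -18.2 for H2AK119ub1 and -4.73 and -5.82 for H3K36me2 under those 2 settings, where each lost its call (exact permutation, adjusted p = 0.0571, 0.0571, 0.143 and 0.0571). Islands of at least 2 kb gave -9.48 for the neurosphere H3K27me3 share, with 297 losses and 392 gains, counted in far regions only.

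The losses and gains under other settings were counted in far regions only, so no share over all regions stands beside them. With islands over at least 50% of a region, losses and gains were 13 and 32 for hippocampus H2AK119ub1 and 43 and 72 for hippocampus H3K36me2. There were 147 gains for hippocampus H3K27me3, 54 for neurosphere H2AK119ub1 and 15 for neurosphere H3K36me2. At equal covered length they were 59 and 51, 34 and 26 (hippocampus H2AK119ub1 and H3K27me3) and 60 and 46 (neurosphere H2AK119ub1). DESeq2 called 1 region for hippocampus H3K36me2, 153 for neurosphere H3K27me3 and 2 for neurosphere H3K36me2, of 20, 738 and 83 calls over all regions.

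The replicate number as a block changed the call for H3K36me2 minus H3K27me3 (-2.09) and minus H2AK119ub1 (-1.86) in hippocampus and for the differences between sources (-15.5 and -4.83), each at an exact permutation p of 0.125, the smallest it allows, and it changed no other call. No label ties a number to a shared animal or day, and same-numbered Ctrl and cKO libraries had correlated deviations of -0.32 to 0.33.

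Leaving out 1 library at a time gave, for cKO minus Ctrl, shares of -9.97 to 20.6 (hippocampus H2AK119ub1), -1.66 to 2.21 (hippocampus H3K36me2), -8.02 to 5.34 (neurosphere H2AK119ub1) and -6.64 to 3.99 (neurosphere H3K36me2). Over both sources they were -5.66 to 9.63 (H2AK119ub1), -6.57 to 0.042 (H3K27me3) and -3.18 to 2.13 (H3K36me2). Log2 enrichments were -0.18 to 0.057 and -0.072 to 0.13 (hippocampus H2AK119ub1 and H3K36me2) and -1.28 to 0.41 (neurosphere H3K36me2). H2AK119ub1 minus H3K27me3 was -0.28 to -0.19, neurosphere minus hippocampus H3K36me2 -0.50 to 0.064, and the differences between sources -17.7 to -13.9 and -6.16 to -2.71. Losses and gains were 29 to 347 and 129 to 891, 17 to 222 and 310 to 812, and 188 to 472 and 133 to 278 in hippocampus (H2AK119ub1, H3K27me3, H3K36me2). In neurospheres they were 281 to 509 and 158 to 384 (H2AK119ub1), 783 to 1755 losses (H3K27me3), and 105 to 337 and 44 to 392 (H3K36me2). With fewer libraries the condition is easier to meet, so these counts can only stay or rise. They too were made in far regions only, with no share over all regions beside them. Calls by edgeR ranged from 0 to 26, 0 to 388 and 0 to 45 in neurospheres and stayed at 0 in hippocampus.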
